A study of Homo sapiens with 8 samples.

Results

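Potassium channel genes are taken here as the feature names that begin KCN followed by A, B, C, D, F, G, H, J, K, M, N, Q, S, T, U or V and a further number or letter. Of 60286 names in the deposited count table, 107 matched this pattern. After 18 names of antisense, intronic, divergent or overlapping transcripts were left out, 89 members remained. By role they are 40 voltage-gated subunits, 16 inward rectifiers (KCNJ), 15 tandem-pore leak channels (KCNK), 8 calcium- or sodium-activated subunits (KCNM, KCNN, KCNT and KCNU), 7 auxiliary subunits (KCNAB and KCNMB) and 3 others (KCNQ1DN, KCNMB3P1 and KCNK4-TEX40).

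Potassium channels set the resting potential of a cell, end each action potential and limit the rate of firing. Most voltage-gated members open on depolarization, inward rectifiers and leak channels hold the membrane near rest, and calcium-activated channels couple calcium entry to hyperpolarization. Members of the GIRK group of inward rectifiers (KCNJ3, KCNJ5, KCNJ6 and KCNJ9) are opened by G-protein subunits and are textbook effectors of D2-type dopamine receptors and of opioid receptors, and glial KCNJ10 takes up potassium from around neurons.

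The cells were neural cultures grown in 2-D or 3-D from the established line H1 of human embryonic stem cells, and were profiled by split-pool barcoding, a method that labels fixed cells by successive rounds of barcodes. Organoids were dissociated with papain, a few at a time. The 8 sequenced samples were sublibraries of 1 pool and held every treatment, so groups were taken from the culture tag in each cell name. Each tag is 1 replicate here, and nothing says whether numbered tags were separate cultures, so the p-values measure the spread between tags, which may be technical.

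The tags name 4 treated arrangements, whose abbreviations the labels do not spell out. 2DCocu held 4 tags each of AcCoc, AcMor and Vehic. 3DFusi held 4 AcCoc, 3 AcMor and 3 Vehic tags, and 2DMono and 3DMono each held 2 tags of AcDop, AcMor and Vehic. The abbreviations match the drugs the series names (cocaine, morphine and dopamine), the controls are called Vehic in the tags and untreated in the labels, and the sources used here name no dose or time. A further 5 arrangements without a treatment tag were 2DProto2Fjo, 2DProto3Wu and 2DProto4Nic with 2 tags each, and 3DProto1For and 3DProto2Xia with 3 tags each. All came from the 1 cell line.

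The table held 43693 cells with a median of 12776 counts per cell. The 34 treated tags held 317 to 1959 cells and summed to 4479874 to 58777177 counts each. A search for cells that resembled summed pairs marked 10.1% of the cells, and 2393 barcode combinations occurred in more than 1 sublibrary. Clustering without the members gave 43 clusters, and markers named the clusters of all but 34.7% of the cells: 7285 excitatory neuron-like, 5616 GABAergic neuron-like, 3677 mesenchymal-like, 3410 cycling, 2342 intermediate progenitor-like, 2162 progenitor-like, 2028 ciliated or ependymal-like, 1415 choroid plexus-like, 322 astrocyte-like and 286 muscle-like cells.

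Every member had at least 1 count, 10 members had under 100 counts in all, and 63 were seen in every tag. The 89 members took 3126063 counts, 0.394% of the total. Voltage-gated members held 2243134 of these, calcium- or sodium-activated members 534209, inward rectifiers 133991, auxiliary subunits 117228 and leak channels 96898. These sums were not divided by gene length, so they describe where the reads fell and not which channel was more abundant. Summed over all members, the level was 4412 ± 465 CPM (counts of a gene scaled to the tag's total; SD, n = 12 tags) in 2DCocu, 3910 ± 544 in 2DMono (n = 6), 3718 ± 298 in 3DFusi (n = 10) and 4482 ± 245.9 in 3DMono (n = 6). The tags of 3DFusi (3293 to 4135 CPM) lay below those of 3DMono (4202 to 4908 CPM), and the other ranges overlapped.

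The promoters of 6 members that changed in the same direction in both 3-D against 2-D comparisons below are shown first. KCNJ6, KCNJ3, KCND3 and KCNK13 were lower in 3-D in both, and KCND1 and KCNC1 were higher in both, each called in only 1 of the 2 subsets into which the 3DFusi tags are split further on. Each line gives the 250 bases before the annotated start on the gene's own strand, 5′ to 3′, from RefSeq (GRCh38.p14), with every GC box, GGGCGG or its reverse complement CCGCCC, in capitals.
KCNJ6 (GIRK2), chr21:37916458-37916707, minus strand: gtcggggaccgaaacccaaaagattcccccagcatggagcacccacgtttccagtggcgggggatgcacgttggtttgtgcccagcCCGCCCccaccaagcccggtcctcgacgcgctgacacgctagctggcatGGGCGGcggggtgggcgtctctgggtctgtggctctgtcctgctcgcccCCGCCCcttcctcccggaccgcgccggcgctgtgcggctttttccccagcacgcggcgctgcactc
KCNJ3 (GIRK1), chr2:154698445-154698694, plus strand: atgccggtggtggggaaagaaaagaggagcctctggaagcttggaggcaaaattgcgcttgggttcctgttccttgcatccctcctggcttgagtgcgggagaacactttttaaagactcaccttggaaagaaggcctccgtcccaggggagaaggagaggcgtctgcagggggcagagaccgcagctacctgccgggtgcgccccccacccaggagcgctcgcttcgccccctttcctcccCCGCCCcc
KCND3 (Kv4.3), chr1:111989669-111989918, minus strand: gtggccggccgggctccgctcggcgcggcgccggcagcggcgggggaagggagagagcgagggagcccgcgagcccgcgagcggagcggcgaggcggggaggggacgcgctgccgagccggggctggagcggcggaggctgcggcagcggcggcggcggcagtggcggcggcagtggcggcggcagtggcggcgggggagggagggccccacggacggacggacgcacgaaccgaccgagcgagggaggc
KCNK13 (THIK-1), chr14:90061744-90061993, plus strand: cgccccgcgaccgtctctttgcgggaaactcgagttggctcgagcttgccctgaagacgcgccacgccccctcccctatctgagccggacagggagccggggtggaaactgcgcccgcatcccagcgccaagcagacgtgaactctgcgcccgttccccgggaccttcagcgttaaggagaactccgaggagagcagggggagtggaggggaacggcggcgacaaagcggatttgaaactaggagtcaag
KCND1 (Kv4.1), chrX:48971845-48972094, minus strand: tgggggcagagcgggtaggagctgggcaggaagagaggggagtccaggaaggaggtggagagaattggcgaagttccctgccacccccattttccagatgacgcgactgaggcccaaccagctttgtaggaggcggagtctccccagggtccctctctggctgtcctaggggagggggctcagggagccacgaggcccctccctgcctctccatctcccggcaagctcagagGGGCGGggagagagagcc
KCNC1 (Kv3.1), chr11:17734531-17734780, plus strand: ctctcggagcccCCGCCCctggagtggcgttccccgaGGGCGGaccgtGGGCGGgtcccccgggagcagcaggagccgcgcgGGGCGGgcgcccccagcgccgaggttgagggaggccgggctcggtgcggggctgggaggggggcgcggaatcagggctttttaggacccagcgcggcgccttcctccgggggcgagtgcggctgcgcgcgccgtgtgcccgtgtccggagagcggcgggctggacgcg

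These 6 windows held 70% (KCNJ6), 62.4% (KCNJ3), 82.8% (KCND3), 64.8% (KCNK13), 65.6% (KCND1) and 79.2% (KCNC1) G and C. KCNC1 held 4 GC boxes, KCNJ6 held 3, KCNJ3 and KCND1 held 1 each, and KCND3 and KCNK13 held none. An entry was found for 64 of the 89 members, whose median G and C content was 64.8% against 58% over 27305 genes. Matches in the 6 windows did not overlap. Read on both strands, GGGCGG occurred in 57.8% of the members' windows (37 of 64) and in 42.3% of all windows. Members took the entry at the gene's outer start where there was one (58 of 64), and all genes the first entry listed. The values of members and of all genes are therefore not fully like for like. The E-box CAGCTG occurred in 20.3% of member windows and 13.8% of all, TATAAA in 10.9% and 11.1%, and the cyclic-AMP element TGACGTCA in 1.56% and 1.77%. Among the members lower in both 3-D comparisons that had an entry, 4 of 8 held GGGCGG and 0 of 8 held TATAAA or CAGCTG. Among the members higher in both, 3 of 4 held GGGCGG and 1 of 4 held CAGCTG. These are letter matches only and say nothing of which factors bind there.

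The first comparison asks how 3-D growth differed from 2-D growth in the Mono arrangements. The GIRK subunit KCNJ6 was the most changed inward rectifier and was 10.05-fold lower in 3-D, while the delayed rectifier KCNB2 and the ERG-family channel KCNH7 were higher. Of the 89 members, 62 passed the filter on low counts and were tested with edgeR's quasi-likelihood test over all genes, and 37 were called at an adjusted p under 0.05, 16 higher and 21 lower in 3DMono. Over all genes tested, 38.8% were called, against 59.7% of the members tested. The median absolute log2 fold change was 0.73 over the members and 0.35 over all genes, with medians near 0 for both (0.04 and 0.03). In counts summed per tag, fewer cells of a type and less RNA per cell cannot be told apart.

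KCNJ6 lies on chromosome 21 (37607373 to 37916457) and encodes GIRK2, the subunit that carries GIRK currents in dopamine neurons. Its level was 18.3, 20.3 and 33.8 CPM in the lowest, median and highest of the 6 3DMono tags, and 162, 180 and 243 CPM in the 6 2DMono tags. The groups were far from overlapping, and the log2 fold change was -3.33 (SE 0.16, adjusted p = 3.611e-09). Its usual partner KCNJ3 (chromosome 2, 154698695 to 154858354) ranged from 35.9 to 49.0 CPM in 3DMono, median 44.3, and from 69.4 to 127 CPM in 2DMono, median 94.6. These groups did not overlap either, and the log2 fold change was -1.35 (SE 0.14, adjusted p = 3.634e-06). KCNJ11, the pore of the ATP-sensitive channel, moved the other way, from 9.71 ± 1.59 CPM in 2DMono to 22.6 ± 3.67 in 3DMono (SD, n = 6 each). The tags did not overlap, and the change was 1.02 on the log2 scale (SE 0.16, adjusted p = 0.0002157). Of 10 inward rectifiers tested, 1 was higher, 3 were lower and 6 were not called. KCNJ9, the GIRK3 subunit, was among the latter with a log2 fold change of 0.63 (adjusted p = 0.07793), as was the glial KCNJ10 with 0.14 (adjusted p = 0.5352). KCNJ5, the GIRK4 subunit, and KCNJ13, known from the choroid plexus, were near 1 CPM and were not called (log2 fold changes 0.64 and 0.80, adjusted p = 0.2212 and 0.1532).

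Among 30 voltage-gated members tested in the Mono pair, 8 were higher and 9 lower. KCNA1 (Kv1.1), a low-threshold channel of axons, showed the lowest log2 fold change of the group. It ranged from 0.0998 to 0.547 CPM in 3DMono and from 1.47 to 3.58 CPM in 2DMono. At these low levels it fell by 2.75 on the log2 scale (SE 0.34, adjusted p = 1.963e-05). KCNA1 passed the filter on low counts through its 2DMono tags alone, so its fall and separation are not independent of that filter. The silent subunit KCNS3, which modifies Kv2 channels, was lower at 6.25 ± 1.14 against 14.4 ± 2.37 CPM (log2 change of -1.40, SE 0.14, adjusted p = 4.219e-06). KCND3, a pore subunit of the A-type current that delays firing, fell from a range of 102 to 149 CPM in 2DMono to 73.3 to 98.0 CPM in 3DMono (log2 fold change -0.73, SE 0.12, adjusted p = 0.000202). Its relative KCND1 was higher, at 2.95 ± 0.939 CPM against 0.804 ± 0.222, a log2 fold change of 1.69 (SE 0.25, adjusted p = 0.0001222). For each of these 4 genes the 3DMono and 2DMono tags did not overlap.

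The Kv2 channels carry much of the delayed-rectifier current of cortical neurons, and the ERG channels open slowly after spikes. KCNB2 (Kv2.2) had 410, 479 and 606 CPM in the lowest, median and highest 3DMono tag and 151, 236 and 301 CPM in 2DMono. Its log2 fold change was 0.92 (SE 0.14, adjusted p = 0.0001302). KCNH7 (ERG3) ranged from 916 to 1425 CPM in 3DMono, median 1117, and from 305 to 701 CPM in 2DMono, median 502. The groups did not overlap for either gene, and for KCNH7 the log2 fold change was 0.99 (SE 0.19, adjusted p = 0.001027). KCNA2 was higher in 3DMono (6.75 ± 1.98 against 2.71 ± 0.893 CPM, log2 fold change 1.15) and so was KCNC1, a channel of fast-firing neurons (32.8 ± 4.71 against 21.0 ± 5.14 CPM, log2 fold change 0.46). The M-current subunit KCNQ3, whose current opposes repetitive firing, was not called in this pair (log2 fold change -0.37, adjusted p = 0.06257). The A-type subunit KCND2 (0.09, adjusted p = 0.6421) and the ERG1 channel KCNH2 (-0.30, adjusted p = 0.3888) were not called either.

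Of 9 leak channels tested in the Mono pair, 3 were higher and 4 lower. KCNK9 (TASK-3) had 7.08, 10.7 and 18.2 CPM in the lowest, median and highest 3DMono tag against 26.6, 29.7 and 56.8 CPM in 2DMono. Its log2 fold change was -1.83 (SE 0.25, adjusted p = 4.978e-05), and the groups did not overlap. KCNK13 (chromosome 14, 90061994 to 90185853), a halothane-inhibited leak channel, fell from a range of 5.11 to 13.9 CPM to 0.875 to 5.79 CPM, so that the groups touched (log2 fold change -1.72, SE 0.32, adjusted p = 0.0008333). KCNK3 (TASK-1) fell by 0.99 on the log2 scale, and KCNK10 (TREK-2), a stretch-sensitive channel, rose from 36.6 ± 9.31 to 67.7 ± 7.12 CPM.

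The calcium-activated members of the Mono pair split by family member. KCNMA1, the pore of the large-conductance BK channel (chromosome 10, 76869602 to 77637808), ranged from 160 to 256 CPM in 2DMono and from 104 to 140 CPM in 3DMono (log2 fold change -0.82, SE 0.12, adjusted p = 0.0001243). The BK auxiliary subunits KCNMB2 and KCNMB4 were lower too, at 18.7 ± 3.82 against 36.2 ± 9.96 CPM and at 68.8 ± 6.55 against 108 ± 19.8 CPM. Among the SK channels, which shape the afterhyperpolarization that follows spikes, KCNN1 was higher in 3-D (17.2 ± 3.18 against 6.25 ± 1.68 CPM, log2 fold change 1.29, SE 0.18, adjusted p = 5.943e-05) while KCNN2 fell by 0.88 (adjusted p = 0.005078). KCNN3 was higher by 0.26 (adjusted p = 0.03346), a call that was lost when any of 7 tags was left out. KCNN4, the intermediate-conductance channel, fell from 1.88 ± 0.816 to 0.283 ± 0.145 CPM, with no overlap. It passed the filter on low counts through its 2DMono tags alone, so its fall and separation are not independent of that filter. KCNMB2 overlaps the antisense gene KCNMB2-AS1 (114 CPM in 2DMono and 61.5 in 3DMono), and because the use of strand in counting is not given in the sources used here, their reads cannot be told apart.

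**Figure D1:**
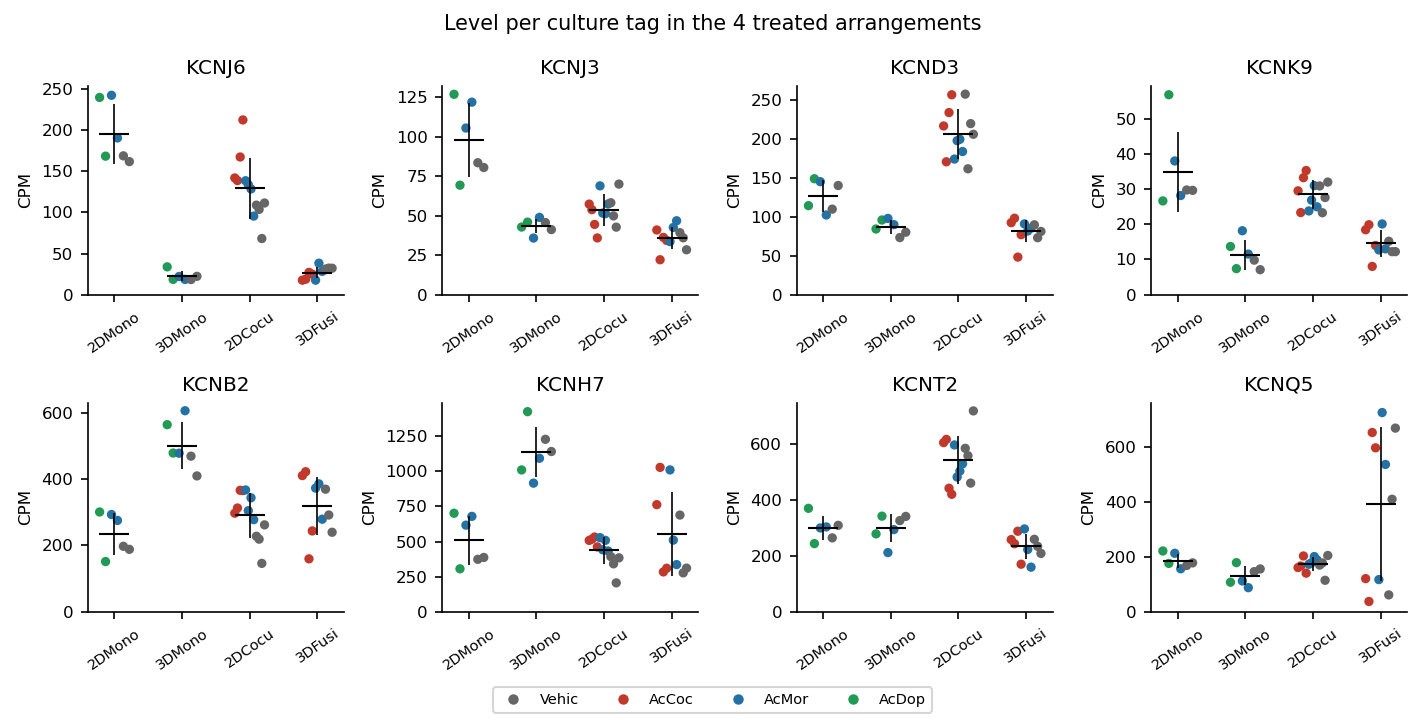
CPM of 8 members (y axes, linear) in each tag of the 4 treated arrangements (x axis). Each point is 1 tag coloured by treatment tag, and black bars give the mean and SD. KCNJ6 lies at 18.3 to 33.8 CPM in 3DMono and 162 to 243 CPM in 2DMono, and KCNQ5 spreads from 37.3 to 725 CPM within 3DFusi.

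The second format comparison set 10 3DFusi tags against 12 2DCocu tags, with treatment as a covariate. The fit took the 3DFusi tags as independent, although tags of one number deviated together. Its p-values, and those of later format tests that use these tags, may therefore overstate the evidence. KCNJ6 was again lower in 3-D, by 5.01-fold, KCND3 and the sodium-activated channel KCNT2 were lower, and the inward rectifiers KCNJ16 and KCNJ2 were higher. Of 63 members tested, 35 were called, 16 higher and 19 lower in 3DFusi (55.6%), while 49.4% of all genes tested were called. The median absolute log2 fold change was 0.49 over the members and 0.34 over all genes.

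In this pair KCNJ6 had 17.6, 27.7 and 38.3 CPM in the lowest, median and highest 3DFusi tag and 68.3, 131 and 213 CPM in 2DCocu (log2 fold change -2.32, SE 0.17, adjusted p = 1.698e-10). The groups did not overlap. KCNJ3 ranged from 22.1 to 46.8 CPM against 35.9 to 70.1 CPM, overlapping groups with a log2 fold change of -0.62 (SE 0.12, adjusted p = 0.0001962). KCNJ10 was at 10.5 ± 1.72 CPM in 3DFusi and 20.1 ± 2.78 in 2DCocu, with no overlap (log2 fold change -0.99, SE 0.11, adjusted p = 2.561e-07). KCNJ16 (chromosome 17, 70075225 to 70135608), which joins KCNJ10 in epithelial and glial channels, was higher at 4.75 ± 3.40 against 1.03 ± 0.615 CPM (log2 fold change 2.08, SE 0.31, adjusted p = 1.063e-05). Its 3DFusi tags spread from 0.447 to 12.7 CPM and overlapped those of 2DCocu. KCNJ16 was a leading gene of a ciliated or ependymal-like cluster. This cluster held 0.732 to 8.14% of the cells of 3DFusi tags and 0 to 0.218% of 2DCocu tags. The part of this cluster in the rise was not tested. KCNJ2, a classical strong inward rectifier, was higher at 2.88 ± 1.91 against 0.789 ± 0.423 CPM. The GIRK subunits KCNJ5 and KCNJ9 were not called (log2 fold changes 0.36 and 0.01), nor was KCNJ13 (-0.03). Over the inward rectifiers, 3 of 12 tested were higher and 3 lower.

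KCND3 (chromosome 1, 111770662 to 111989668) ranged from 48.3 to 98.2 CPM in 3DFusi, median 83.7, and from 162 to 258 CPM in 2DCocu, median 203. These groups were fully apart, and the log2 fold change was -1.40 (SE 0.12, adjusted p = 5.029e-09). In an unnamed cluster led by ALDH1L1 (cluster 3), KCND3 was at 340 CPM against 123 in the named classes. This cluster held 13.4 to 38.0% of the cells of 2DCocu tags and at most 0.0803% of 3DFusi tags. Its part in the fall was not tested. KCNQ3 ranged from 115 to 607 CPM against 605 to 1006 CPM, touching at the ends (log2 fold change -1.57, SE 0.23, adjusted p = 8.341e-06). It was high in excitatory neuron-like cells, which on average made up a smaller share of 3DFusi than of 2DCocu cells. Within that class its call was lost once cells marked as doublets were removed (log2 fold change -0.23, adjusted p = 0.09212). The part of the cell mix in the fall of KCNQ3 was not tested. KCNG1, a silent subunit, was lower (6.92 ± 2.07 against 15.97 ± 3.55 CPM), as were KCNH2 (ERG1; 7.25 ± 2.84 against 11.1 ± 2.52 CPM) and KCND2 (log2 fold change -0.57, adjusted p = 0.00604). With the Vehic tags alone, KCND2 had a log2 fold change of 0.15 (adjusted p = 0.6805). KCNC1 was higher by 0.46 (adjusted p = 0.009293). Over the voltage-gated members, 8 of 30 were higher and 7 lower. KCNQ1 overlaps the antisense transcript KCNQ1OT1, at 63.2 CPM in 2DCocu and 97.9 in 3DFusi, and their reads cannot be told apart.

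Among the remaining roles, KCNT2, a sodium-activated channel of the Slick type, had 160, 239 and 297 CPM in the lowest, median and highest 3DFusi tag and 421, 544 and 719 CPM in 2DCocu. The groups did not overlap (log2 fold change -1.28, SE 0.13, adjusted p = 2.353e-08). KCNMA1 was lower by a small margin, 202 ± 41.6 against 223 ± 27.4 CPM (log2 fold change -0.21, SE 0.07, adjusted p = 0.01751). This call was lost with no filter on low counts (adjusted p = 0.08237), with the Vehic tags alone (0.3957) and with only the 3DFusi tags numbered 3 and 4 (0.06114). KCNN2 was lower by 0.34 on the log2 scale (adjusted p = 0.04527), a call lost when any of 17 tags was left out and with 3DFusi tags of one number summed (adjusted p = 0.1345). Of the leak channels, 2 of 9 were higher and 4 lower. KCNK13 ranged from 0.670 to 10.8 CPM in 3DFusi and from 5.58 to 29.4 CPM in 2DCocu (log2 fold change -2.07, SE 0.26, adjusted p = 9.218e-07), with overlap at the ends. In the ALDH1L1-led cluster 3, nearly absent from 3DFusi, KCNK13 was at 46.8 ± 17.3 CPM against 3.36 in the named classes. The part of this cluster in the fall was not tested. KCNK9 ranged from 8.02 to 20.1 CPM against 23.3 to 35.3 CPM, with no overlap (log2 fold change -1.04, SE 0.15, adjusted p = 4.12e-06). KCNK6 was at 1.03 ± 0.720 against 2.04 ± 0.581 CPM, and the stretch-sensitive KCNK2 was higher by 0.49 (adjusted p = 0.02111), a call lost without 3DFusi AcCoc 1. With the 3DFusi tags of one number summed, KCNK2 (log2 fold change 0.41, adjusted p = 0.1175) and the leak channel KCNK3 (-0.45, adjusted p = 0.07644) were not called.

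The members called in each pair can be set side by side, since the pairs share no tags. Of 59 members tested in both, 11 were lower in 3-D in both: KCNA1, KCND3, KCNJ3, KCNJ6, KCNK3, KCNK9, KCNK13, KCNMA1, KCNMB2, KCNMB4 and KCNN2. In both pairs 5 were higher: KCNAB2, KCNAB3, KCNC1, KCND1 and KCNK7. These are 18.6% and 8.47% of the members tested in both, against 12.3% and 10.8% of all genes tested in both. A further 12 were called in the Mono pair alone (20.3%, against 13.9% of all genes), 10 in the other pair alone (16.9%, against 24.5%) and 14 in neither (23.7%, against 36.7%). The difference between the pairs' changes was tested in 1 edgeR model over all 4 arrangements, and 26 of 76 members tested were called (34.2%), against 14.7% of all genes. Opposite calls in the pairs were made for 7 members (11.9%), against 1.74% of all genes. Each passed this test, which reuses the tags behind those calls and so adds no separate support. Among these members were KCNA2, KCNC2, KCNG1, KCNH5, KCNJ2 and KCNQ5. KCNJ2 was lower by 0.95 in 3DMono and higher by 1.75 in 3DFusi (difference -2.70), and KCNG1 was higher by 0.66 and lower by 1.25 (difference 1.97). KCNJ6 fell in both pairs, with a larger fall in the Mono pair (difference -1.01). In the arrangements without a treatment tag, whose KCNJ6 values close the report, the 3-D tags were not below the 2-D tags. No test was run there.

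**Figure D2:**
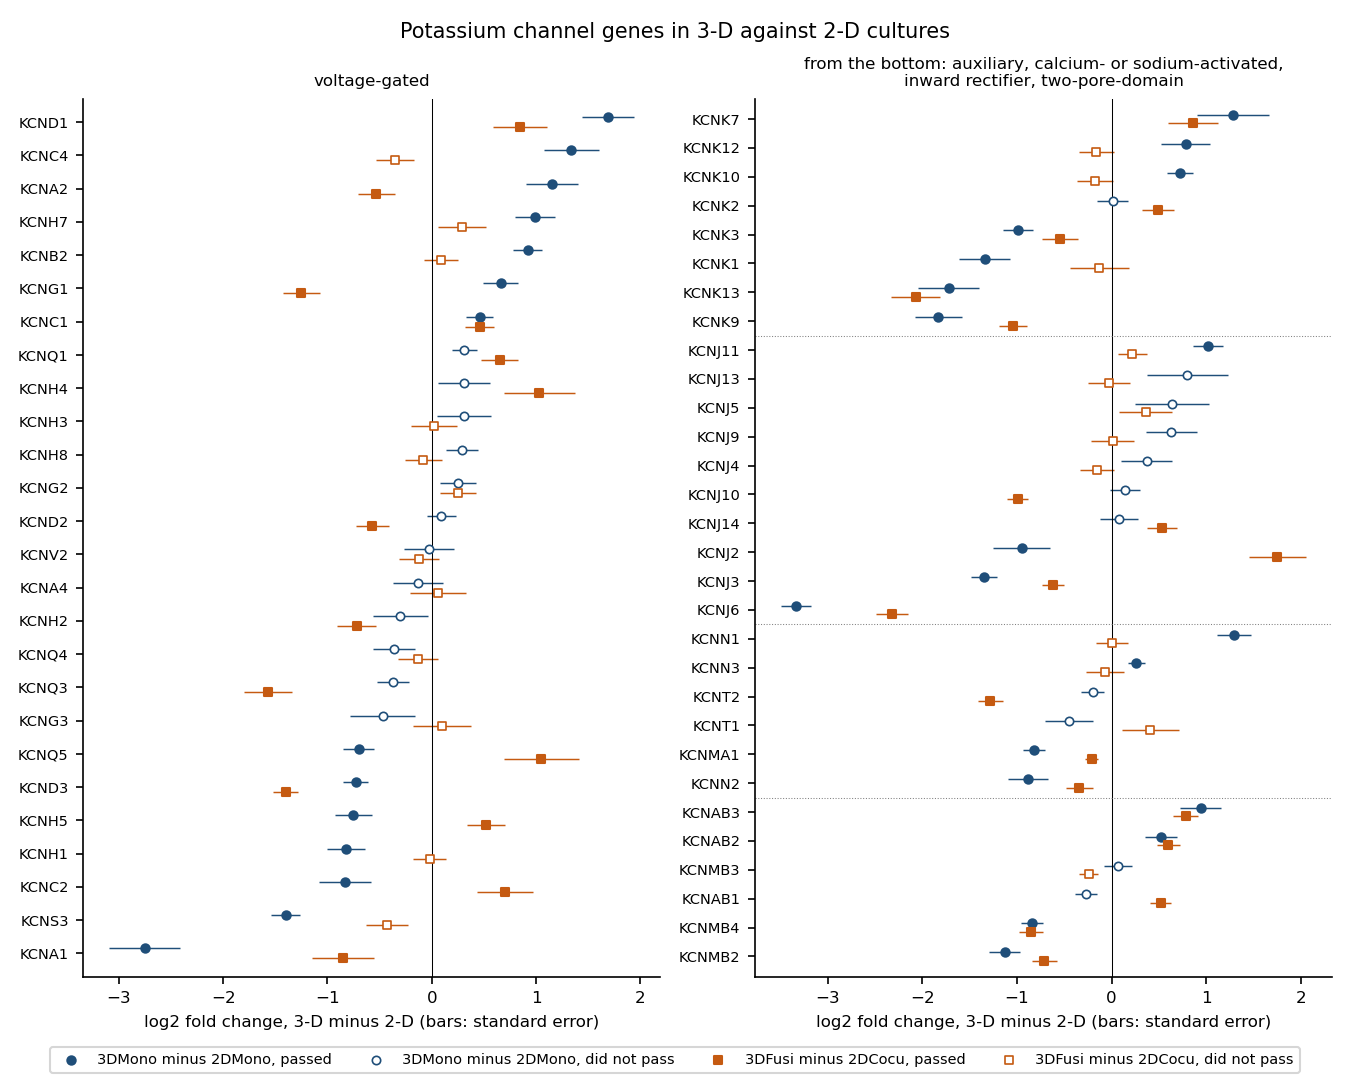
Log2 fold change of 3-D against 2-D (x axis) for 56 members tested in both pairs (rows, by role), with blue circles for 3DMono against 2DMono and orange squares for 3DFusi against 2DCocu. Bars give the SE and filled symbols an adjusted p under 0.05; KCNJ6 sits at -3.33 and -2.32, and KCNJ2 and KCNQ5 lie on opposite sides of 0 in the 2 pairs.

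The 10 3DFusi tags were uneven in several members, and their tag numbers moved with the levels. KCNQ5, an M-current subunit (chromosome 6, 72622064 to 73198853), was at 120, 37.3, 653 and 597 CPM in AcCoc tags 1 to 4, at 117, 725 and 536 CPM in AcMor tags 1, 3 and 4, and at 61.2, 410 and 669 CPM in Vehic tags 1, 3 and 4. Every tag numbered 1 or 2 was below every tag numbered 3 or 4. Against 2DCocu (173 ± 26.4 CPM), the 4 tags numbered 1 and 2 were lower (84.0 ± 41.3 CPM, log2 fold change -1.01, adjusted p = 0.001775) and the 6 numbered 3 and 4 were higher (598 ± 113 CPM, log2 fold change 1.65, adjusted p = 1.347e-10). The pooled log2 fold change of 1.05 (SE 0.36, adjusted p = 0.01916) joins these opposite values. The split by number was chosen after these values had been seen, and 3DFusi tags of one number deviated together. The p-values of the split fits, here and below, therefore overstate the evidence, and the pooled fit shares the second of these limits.

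KCNH7 showed the reverse order. It was at 763, 1028, 283 and 310 CPM in AcCoc tags 1 to 4, at 1010, 510 and 336 CPM in AcMor and at 688, 277 and 310 CPM in Vehic tags 1, 3 and 4. Tags 1 and 2 were higher than 2DCocu (log2 fold change 0.98, adjusted p = 7.522e-07) and tags 3 and 4 lower (-0.50, adjusted p = 0.001988), while the pooled value of 0.29 was not called. KCNC2, KCNH5 and KCNA2 were called with tags 3 and 4 (log2 fold changes 1.05, 0.82 and -0.96) and not with tags 1 and 2 (-0.02, -0.09 and -0.07), and the call of KCNA2 was also lost with the tags of one number summed (-0.45, adjusted p = 0.1694). The falls of KCNJ6 (-2.54 and -2.17), KCND3 (-1.16 and -1.61), KCNK13 (-2.58 and -1.78), KCNQ3 (-1.04 and -2.13) and KCNT2 (264 ± 22.5 and 214 ± 46.7 CPM against 544), and the rise of KCNJ16 (1.93 and 2.12), were called in both subsets. With tags 1 and 2, 40 of 67 members tested were called, against 47.1% of all genes tested, and with tags 3 and 4, 46 of 67, against 54.6%.

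Of the 35 members called with all 3DFusi tags, 20 were called the same way in both subsets, 11 were not with tags 1 and 2 and 4 were not with tags 3 and 4 (57.1, 31.4 and 11.4%). Of all genes called with all 3DFusi tags, 59%, 29.4% and 13.2% did so. Of the members called in both the Mono pair and this one, KCND1 (log2 fold change 0.18, adjusted p = 0.6832), KCNK7 (0.20, adjusted p = 0.6129) and KCNN2 (-0.11, adjusted p = 0.5795) were not called with tags 1 and 2. KCNC1 (0.33, adjusted p = 0.05695), KCNA1 (-0.49, adjusted p = 0.148) and KCNMA1 were not called with tags 3 and 4. KCND2 (-0.45, adjusted p = 0.114) was not called with tags 1 and 2, nor KCNK2 (0.26, adjusted p = 0.1677) with tags 3 and 4.

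Beside this pattern stood 1 cluster of 695 cells (cluster 24), without a marker-based name and led by HAND2, with TH, SLC18A2 and DDC among its markers. In the 7 tags of the series with at least 20 of its cells, KCNQ5 was at 3318 ± 926 CPM there against 263.5 in the named classes. KCNH5 (208 against 17.6 CPM), KCNS3 (46.1 against 4.34 CPM) and KCND2 (884 against 104 CPM) were also high in this cluster. It held 0.338, 0, 4.62 and 14.1% of the cells of AcCoc tags 1 to 4, 0.129, 15.3 and 11.6% of AcMor and 0, 8.57 and 6.06% of Vehic tags 1, 3 and 4. Its part in the 3DFusi levels of KCNQ5 and KCNH5 was not tested.

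**Figure D3:**
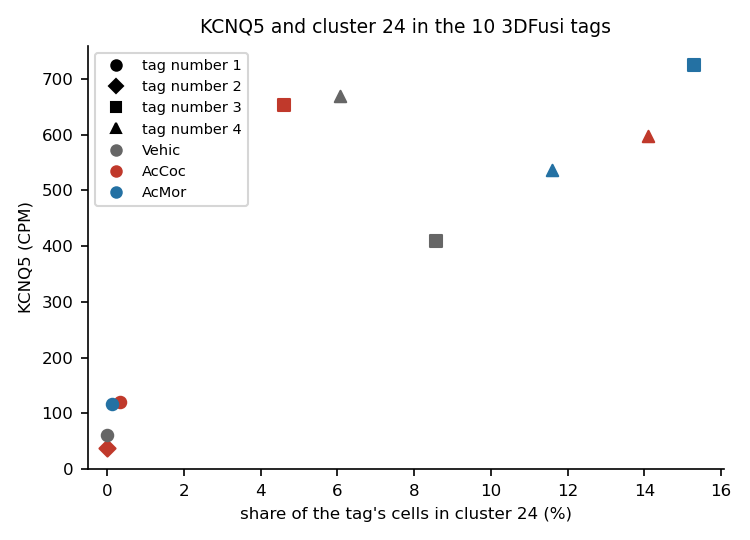
KCNQ5 level in CPM (y axis) against the share of the tag's cells in the HAND2-led cluster 24 (x axis, %) for the 10 3DFusi tags. Tags numbered 1 and 2 sit at shares of 0 to 0.338% and 37.3 to 120 CPM, and tags numbered 3 and 4 at 4.62 to 15.3% and 410 to 725 CPM.

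The format comparisons were repeated within excitatory neuron-like cells, which made up 30.9% of 2DMono cells on average (15.8 to 38.4% per tag), 21% of 3DMono (7.67 to 28.6%), 22.7% of 2DCocu (4.91 to 36.8%) and 8.91% of 3DFusi (2.56 to 17.6%). KCNJ6 was lower in 3-D within this class in both pairs. KCNB2, KCNH7 and KCNJ11 were higher in 3DMono, and the BK auxiliary subunits KCNMB2 and KCNMB4 lower in both pairs. In the Mono pair 27 of 43 members tested were called, 10 higher and 17 lower (62.8%), against 34.7% of all genes tested. In the 3DFusi and 2DCocu pair 18 of 37 were called, 6 higher and 12 lower (48.6%), against 40.6%. Different clusters supplied the class: 1 cluster held 99.2% of the class in 3DMono and 93.6% in 3DFusi, while another held 67.2% in 2DMono and 79.9% in 2DCocu. The members took no part in forming these clusters.

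Within excitatory neuron-like cells of the Mono pair, KCNJ6 had 28.9, 34.0 and 63.1 CPM in the lowest, median and highest 3DMono tag and 399, 506 and 560 CPM in 2DMono (log2 fold change -3.82, SE 0.15, adjusted p = 9.48e-12). In 3DFusi and 2DCocu it had 12.1, 57.1 and 80.9 CPM against 182, 302 and 460 CPM (log2 fold change -2.57, SE 0.21, adjusted p = 1.795e-09). In neither pair did the groups overlap. KCNJ11 rose in both pairs, from 8.82 to 29.4 CPM in the Mono pair (log2 fold change 1.66) and from 11.2 to 31.1 CPM in the other (1.51). KCNMB2 fell from 48.1 to 12.6 CPM and from 37.8 to 9.79 CPM, and KCNMB4 from 226 ± 31.6 to 114 ± 14.2 CPM and from 194 to 106.5 CPM.

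Further members called in the class included KCNH1 (EAG1), which fell from 110 ± 60.9 to 18.1 ± 1.52 CPM in the Mono pair (log2 fold change -2.56, SE 0.25, adjusted p = 1.606e-06). KCNB2 rose there from 487 ± 54.2 to 973 ± 126 CPM and KCNH7 from 822 ± 161 to 1796 ± 261 CPM, both without overlap of tags. The leak channel KCNK1 fell from 10.2 to 1.91 CPM (log2 fold change -2.29), and KCNMA1 from 347 to 191 CPM (-0.89, adjusted p = 0.001796). In 3DFusi against 2DCocu, KCNH8 (ELK-type; 109 against 268 CPM), KCNH2 (7.26 against 19.9 CPM), KCNS3 (4.95 against 20.8 CPM) and KCNT2 (232 against 506 CPM) were lower. The same 4 were lower in the Mono pair, at log2 fold changes of -1.04 (KCNH8), -1.02 (KCNH2), -1.28 (KCNS3) and -0.47 (KCNT2; adjusted p = 0.005909). KCNJ3 and KCNK3 were called lower within this class of the Mono pair (log2 fold changes -0.64 and -0.72), and the calls were lost once cells marked as doublets were removed (-0.09 and -0.64, adjusted p = 0.648 and 0.1056).

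GABAergic neuron-like cells could be compared in the Mono pair, with 25 to 391 cells per tag. The leak channels KCNK13, KCNK9 and KCNK3, the SK channel KCNN2 and the Kv channel KCNC2 were lower there in 3-D. Of 33 members tested, 15 were called, 2 higher and 13 lower (45.5%), against 22.3% of all genes tested. KCNK13 was at 2.63 ± 3.79 CPM in 3DMono and 46.7 ± 18.3 in 2DMono (log2 fold change -4.92, SE 0.51, adjusted p = 2.254e-06), and KCNN2 at 17.0 ± 6.18 against 130 ± 44.1 CPM (log2 fold change -3.01, adjusted p = 2.636e-07). KCNC2, a channel of fast-spiking interneurons, fell from 150 to 26.5 CPM (-2.91), and KCNK9 from 220 to 22.0 CPM (-3.18). For these 4 members the tags did not overlap. KCNK13 passed the filter on low counts there through its 2DMono tags alone, so its fall and separation are not independent of that filter.

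KCNH7 fell in GABAergic neuron-like cells, from 1251 ± 182 to 650 ± 115 CPM (log2 fold change -1.02, adjusted p = 2.943e-05), while it rose in excitatory neuron-like cells. The difference between the classes was not tested. KCNN3 was higher by 0.84, and KCNJ6 was not called (log2 fold change -0.90, adjusted p = 0.06056). Here too the class rested on different clusters, with 94.5% of the 2DMono cells in 1 cluster and 90.2% of the 3DMono cells in another. KCNJ3 was 1 of the 10 leading genes of the 2-D cluster, so its call is counted but its level is a mark of that cluster rather than a result.

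The second question of the series is the response to the drugs. In 2DCocu, AcCoc tags had more KCNJ6, KCNB2, KCNH7, KCND2 and KCNA2, and less KCNK13, KCNMA1 and KCNG1, than Vehic tags, and AcMor tags had more KCNB2. Of 63 members tested for AcCoc, 8 were called, 5 higher and 3 lower (12.7%), against 6.1% of all genes tested. For AcMor 1 member was called (1.59%) against 0.975%. The 2 comparisons share the Vehic tags.

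KCNK13 was at 14.5, 8.35, 6.67 and 5.58 CPM in AcCoc tags 1 to 4 and at 19.1, 20.8, 22.0 and 29.4 CPM in Vehic tags. All AcCoc tags were below all Vehic tags (log2 fold change -1.33, SE 0.23, adjusted p = 0.004666), and the AcMor tags at 14.8, 14.1, 10.9 and 15.0 CPM lay below Vehic without a call. KCNJ6 was at 142, 139, 168 and 213 CPM in AcCoc and 109, 104, 68.3 and 112 CPM in Vehic. Every AcCoc tag exceeded every Vehic tag (log2 fold change 0.80, SE 0.15, adjusted p = 0.006652). In AcMor it was at 139, 134, 129 and 95.6 CPM, overlapping Vehic (log2 fold change 0.37, adjusted p = 0.2436).

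KCNB2 was at 297, 313, 366 and 366 CPM in AcCoc, 367, 305, 344 and 278 CPM in AcMor and 228, 219, 146 and 262 CPM in Vehic. Both treated groups lay wholly above Vehic, with log2 fold changes of 0.70 (SE 0.13, adjusted p = 0.007261) and 0.64 (SE 0.13, adjusted p = 0.03664). KCNH7 was at 508, 517, 532 and 461 CPM in AcCoc and 392.5, 341, 205 and 384 CPM in Vehic (log2 fold change 0.66, SE 0.14, adjusted p = 0.01096). KCND2 (log2 fold change 0.67, adjusted p = 0.0213) and KCNA2 (0.79, adjusted p = 0.02693) were higher as well. The KCND2 call was lost with no filter and without AcCoc 3, Vehic 2 or Vehic 3. The KCNA2 call was lost without AcCoc 3 or 4 or Vehic 1, 2 or 3.

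KCNMA1 was at 184, 204, 188 and 192 CPM in AcCoc and 253, 256, 249 and 231 CPM in Vehic (log2 fold change -0.33, SE 0.08, adjusted p = 0.0287). AcMor tags, at 237, 256, 212 and 218 CPM, overlapped Vehic. KCNG1 was at 14.6, 9.55, 12.8 and 11.8 CPM in AcCoc against 22.2, 16.7, 19.9 and 15.1 CPM (log2 fold change -0.57, SE 0.16, adjusted p = 0.04126). With the tag number as a block the KCNG1 call was lost (adjusted p = 0.06492). Leaving out AcCoc 2, 3 or 4 or Vehic 1 or 3 also ended the KCNG1 call. The KCNMA1 call was lost with no filter and without AcCoc 3 or 4 or Vehic 1 or 3. The GIRK partner KCNJ3 (-0.16, adjusted p = 0.5876) and KCNQ3 (0.43, adjusted p = 0.06587) were not called. The count of 8 was 4 without AcCoc 3 or without Vehic 3, 5 without AcCoc 4 and 14 without Vehic 4, and 0 members were called in a single fit over all 4 arrangements. The AcMor call of KCNB2 was lost when any tag but Vehic 4 was left out, and with the tag number as a block (adjusted p = 0.07271).

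**Figure D4:**
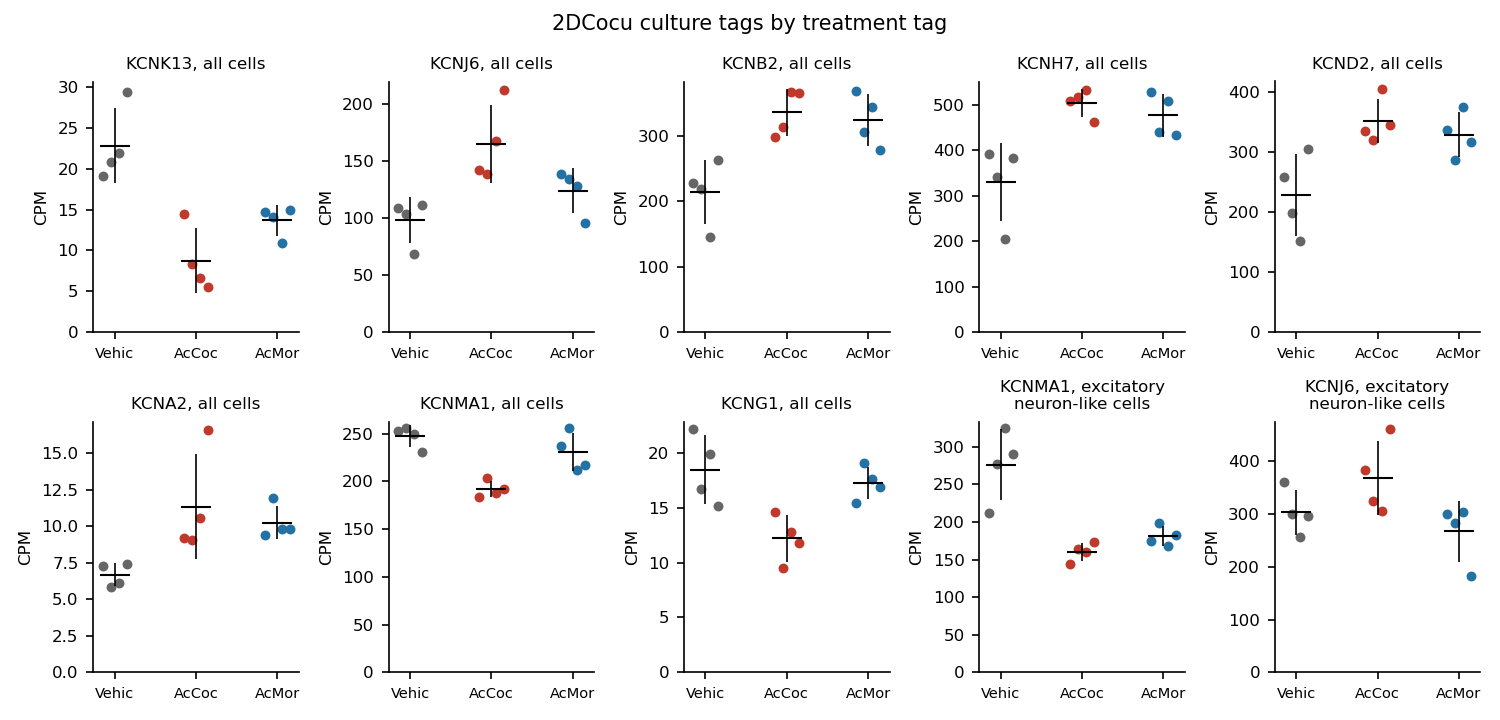
CPM per tag (y axes, linear) in Vehic, AcCoc and AcMor tags of 2DCocu (x axis), 4 tags each with mean and SD. Of the 10 panels, 8 show summed tags and 2 show KCNMA1 and KCNJ6 in excitatory neuron-like cells. KCNK13 lies at 5.58 to 14.5 CPM in AcCoc and 19.1 to 29.4 CPM in Vehic.

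The cell mix moved with these values. Excitatory neuron-like cells, in which KCNJ6, KCND2 and KCNB2 were high, made up 32.0% of AcCoc cells (26.1 to 36.8% per tag), 27.8% of AcMor (26.1 to 29.7%) and 8.39% of Vehic (4.91 to 10.9%). An unnamed cluster led by ALDH1L1, in which KCNK13 was at 46.8 ± 17.3 CPM against 3.36 in the named classes, made up 17.0, 17.1, 13.4 and 15.2% of AcCoc tags, 14.3, 17.3, 17.1 and 18.7% of AcMor tags and 29.9, 31.4, 38.0 and 34.3% of Vehic tags. An unnamed cluster led by SLC6A5 and PAX2, in which KCNA2 was at 47.4 ± 17.8 CPM against 4.44, made up 10.9, 10.3, 13.0 and 12.3% of AcCoc tags, 13.5, 13.7, 11.2 and 12.1% of AcMor tags and 7.84, 5.07, 2.52 and 4.92% of Vehic tags. The part of this mix in the summed levels was not tested.

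Within excitatory neuron-like cells of 2DCocu, only KCNMA1 was called for AcCoc, as 1 of 43 members tested, against 0.108% of all genes tested. It was at 144, 164, 160 and 173 CPM in AcCoc and 211, 277, 324 and 290 CPM in Vehic. The groups did not overlap, and the log2 fold change was -0.76 (SE 0.13, adjusted p = 0.01218). In AcMor it was at 175, 199, 168 and 183 CPM, also below every Vehic tag and not called (log2 fold change -0.55, adjusted p = 0.1437). The clusters within the class moved with the treatment: cluster 18 held 12.8, 15.0, 18.6 and 21.8% of its cells in AcCoc tags, 18.1 to 23.6% in AcMor tags and 22.8, 30.7, 21.6 and 38.6% in Vehic tags, and nearly all others were in cluster 0. The part of this shift in the KCNMA1 level was not tested. The AcCoc call was lost without AcCoc 1, AcCoc 3, Vehic 2 or Vehic 4 (adjusted p = 0.06067 to 0.09139). KCNJ6 (368 against 303 CPM, log2 fold change 0.25, adjusted p = 0.6809), KCNB2 (769 against 662 CPM, 0.20, adjusted p = 0.6364), KCNH7 (954 against 997 CPM, -0.09, adjusted p = 0.9138) and KCND2 (633 against 622 CPM, 0.01, adjusted p = 0.9999) were not called in this class. For AcMor 0 members were called with edgeR, against 0.062% of all genes, with 6 members and 7.44% of all genes at an unadjusted p under 0.05, and 1 member called by DESeq2.

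In the other 3 arrangements 0 members were called for any drug, and 0% of all genes were. These fits carried no term for the tag number, which was read as a pairing in 3DFusi. In 3DFusi 74 members were tested, and 2 for AcCoc and 1 for AcMor had an unadjusted p under 0.05, against 1.66% and 0.747% of all genes. In 2DMono 3 of 56 for AcDop and 10 of 56 for AcMor did, against 2.41% and 6.42% of all genes. In 3DMono it was 2 of 66 for AcDop and 13 of 66 for AcMor, against 3.35% and 8.71%. DESeq2 called 0 members in all 6 comparisons. The Mono comparisons rest on 2 tags a group. KCNJ6 in 2DMono was at 240 and 168 CPM in AcDop, 243 and 191 CPM in AcMor and 169 and 162 CPM in Vehic, and in 3DMono at 33.8 and 18.5, 22.1 and 18.5, and 18.3 and 22.2 CPM. In 3DFusi it was at 17.6, 18.8, 27.1 and 24.9 CPM in AcCoc and 31.1, 32.2 and 32.1 CPM in Vehic. These AcCoc tags lay below Vehic while those of 2DCocu lay above it, but the 3DFusi change was not called (log2 fold change -0.51, adjusted p = 1). The test of the difference between 2DCocu and 3DFusi called 0 of 74 members for AcCoc (lowest adjusted p = 0.3596, 5 at an unadjusted p under 0.05), against 0.00425% of all genes, and 0 for AcMor (lowest adjusted p = 0.9999), against 0%. This test carried no term for the tag number either, so differences between 3DFusi tag numbers counted as spread in it.

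A list of 26 partner genes, the KCNE and KCNIP subunits, DPP, AMIGO and LRRC subunits, sulfonylurea receptors, axonal scaffolds and HCN channels, was read from the same fits. Of 20 tested, 4 were higher and 11 lower in 3DMono, and 3 higher and 9 lower in 3DFusi, where 38.8% and 49.4% of all genes were called. CNTN2, the axonal adhesion protein that clusters Kv1 channels, fell by 2.74 and 3.39 on the log2 scale, and LGI1, a secreted Kv1 modulator, by 2.57 and 1.52. KCNIP4, which binds Kv4 channels such as KCND3, fell by 1.81 and 0.65, while KCNIP2 rose by 0.77 and 0.53. In AcCoc tags of 2DCocu 6 were higher and 0 lower, among them CNTNAP2 (log2 fold change 0.79), KCNIP4 (0.52) and ANK3 (0.45), and 1 was higher in AcMor, against 6.1% and 0.975% of all genes called.

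The members also divided by cell class. The values that follow describe tags with at least 20 cells of a class, against the other named classes of the same tags, and carry no test because the classes were drawn from expression. In excitatory neuron-like cells KCNJ6 was at 202 ± 178 CPM against 29.5 in the other classes and was higher in 39 of 40 tags, and KCND2 (461 against 127 CPM) and KCNB2 (735 against 237 CPM) were higher in 39. All of these serve neuronal excitability, KCND2 as the main A-type subunit of dendrites. In GABAergic neuron-like cells KCNC2 (77.2 against 10.6 CPM) and KCNK9 (62.5 against 11.5 CPM) were higher in 29 of 31 tags and KCNK3 (21.4 against 5.57 CPM) in 31. KCNB2 was high in this class as well (712 ± 299.6 against 306 CPM, higher in 28 of 31 tags), so that it marked both neuronal classes. KCNJ3 (220 against 32.5 CPM) was higher in 29, and it is a leading gene of 1 of the clusters. KCNK3 and KCNK9 encode the acid-sensitive TASK channels, which join as dimers. KCNK9 was higher in excitatory neuron-like cells too (31.6 against 14.4 CPM, 34 of 40 tags). Intermediate progenitor-like cells had more KCNQ3 (1581 against 636 CPM) and KCNH7 (1685 against 710 CPM) in 32 of 32 tags, and more KCNN1 (33.7 against 9.04 CPM) in 31. Excitatory neuron-like cells were high in KCNQ3 and KCNH7 too (1413 against 393 CPM in 40 of 40 tags, and 1318 against 561 CPM in 35).

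Progenitor-like cells were marked by KCNN3 (432 against 130 CPM, 17 of 19 tags), KCNJ10 (25.5 against 9.17 CPM, 19 tags) and KCNK10 (132 against 54.8 CPM, 18 tags). KCNJ10 is also the main potassium channel of mature astrocytes. Cycling cells had smaller differences, with KCNAB3 at 11.2 against 5.75 CPM and KCNJ10 at 17.3 against 9.51 CPM. Astrocyte-like cells reached 20 cells in 3 tags, all with more KCNK13 (64.6 against 9.53 CPM), KCND3 (325 against 114 CPM) and KCNN3 (269 against 109 CPM). KCNJ8 was named for this class from 10 counts.

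Among the remaining classes, choroid plexus-like cells had more KCNK13 (35.4 against 2.44 CPM) in 16 of 16 tags and more KCNK1 (19.9 against 9.04 CPM), a leak channel of the TWIK type, in 14. Ciliated or ependymal-like cells had KCNJ16 at 20.5 against 0.53 CPM, higher in 20 of 22 tags, and KCNJ16 is a leading gene of 1 of their clusters. They also had more KCNN3 (230 against 101 CPM) in 22 of 22 tags. Mesenchymal-like cells had more KCNK6 (7.03 against 0.462 CPM) in 27 of 28 tags, a gene for a leak channel found in vascular tissue, and more KCNQ5 (301 against 135 CPM) in 22, although KCNQ5 was also higher in excitatory neuron-like cells (321.5 against 132 CPM, 38 of 40 tags). Muscle-like cells had more KCNJ2 (11.1 against 2.22 CPM), KCNJ12 (5.43 against 0.943 CPM) and KCNH2 (16.3 against 5.39 CPM) in 4 of 4 tags, on 78, 30 and 99 counts. KCNJ2 and KCNJ12 carry the strong inward rectifier current of muscle. KCNJ12 shares sequence with KCNJ18, so its reads may be split between them. The levels of KCNQ3 and KCNG1 in intermediate progenitor-like cells and of KCNN3, KCNK10 and KCNA2 in progenitor-like cells moved by more than their spread when coarser clusters were used.

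**Figure D5:**
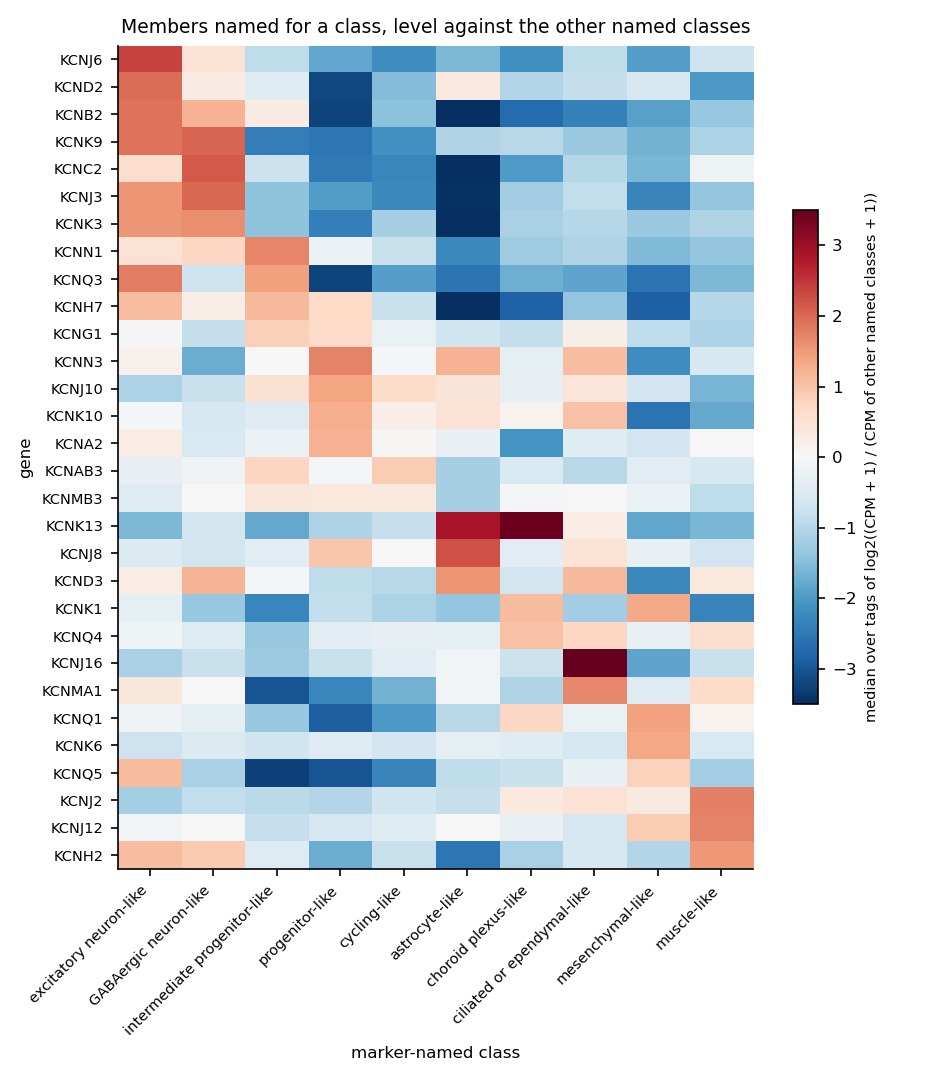
Median over tags of log2((CPM + 1) / (CPM of the other named classes + 1)) for members (rows) in 10 marker-named classes (columns), with the colour capped at the ends of the scale. KCNJ6 stands out in excitatory neuron-like cells, KCNB2 in excitatory and GABAergic neuron-like cells, KCNK13 in choroid plexus-like and astrocyte-like cells and KCNJ16 in ciliated or ependymal-like cells.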

How the data were processed

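The authors deposited 1 sparse matrix of expected counts (estimated counts, of which 54.3% of the entries were whole) for 60286 genes and 43693 cells. Per the submitters' processing notes, Salmon 1.7.0 with alevin, Seurat 4.1.1 and the hg38 build were used, and the sources used here give no role or setting for any step. The use of strand or of unspliced reads in counting is not stated there.

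The members, the partner list and the marker lists were chosen with earlier results of these data known. Counts were summed per culture tag, rounded and tested over all genes with edgeR 4.0.16 (quasi-likelihood test with robust estimation, filterByExpr and TMM normalization, Benjamini-Hochberg adjustment, threshold 0.05) in R 4.3.3, after a check on simulated data. The filter on low counts kept a gene that passed in a single group. Changes of members near 0 in the other group are therefore not independent of it. Format comparisons carried the treatment tag as a covariate. The tests were repeated with DESeq2 1.42.0, with no filter, with 1 fit over the 4 arrangements, with the tag number as a block, without each tag and, where classes were used, with coarser clusters and without doublets. The fits split by 3DFusi tag number, and the tests of differences between comparisons, were chosen after the data had been seen.

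Cells were clustered with Python 3.11.15 and leidenalg 0.10.2 (2000 variable genes without the members, 30 principal components, 20 neighbours, resolution 0.8 or 0.4). A cluster was named where at least 3 and 40% of a marker list were 2-fold higher and seen in 10% of its cells, unless another class had more markers than its own among the 10 top genes or over 50% of its cells were marked as doublets; this rule was set after the clusters had been seen. Doublets were called by simulated pairs within each sublibrary, with 61.3% of simulated pairs above the threshold, and were kept except in the stated alternative. Class values need 20 cells per tag and 3 tags. Ratios between classes add 1 CPM to each level.

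Members named are, per role and format comparison, the called ones of lowest adjusted p (up to 5 voltage-gated and 3 of each other role), up to 8 called members of each treatment or class comparison, the 4 of largest ratio per class, and a list of 20 channels of known function. The auxiliary subunits, KCNQ5, KCNC2, KCNH5, KCNJ2, the members called in both format comparisons and the members of unnamed clusters were named after their values had been seen.

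All 45 pairs of tags in a group differed beyond sampling noise (chi-square per degree of freedom 5.41 to 156). In 3DFusi, tags with the same number deviated together in 9 of 9 pairs (correlations 0.14 to 0.57, median 0.32), so the number was read as a pairing there. Pairs of different numbers reached 0.32, so the same-number and other pairs overlapped. Counts per tag limit the precision of low members, and counting intervals would cover counting error only. Some genes that these rules select are not reported here.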

Additional observations from a re-analysis of the deposited data

Results flagged for a closer look

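Of 59 combinations of member and arrangement examined for a tag far from the others, 3 were found, and chance marks about 1 in 20. KCNJ6 was at 33.8 CPM in 3DMono AcDop 1, with the nearest 3DMono tag at 22.2 CPM. KCND3 was at 48.2 CPM in 3DFusi AcCoc 3, with the nearest at 73.2 CPM. KCNK13 was at 10.8 CPM in 3DFusi Vehic 3, with the nearest at 5.67 CPM. Leaving out 1 of these tags turned no direction and ended no call of these 3 members in the format comparisons over whole tags.

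The log2 change from 2-D to 3-D in the Mono pair minus that in the 3DFusi and 2DCocu pair passed edgeR's test of the difference for 26 of 76 members tested, 25 of which are given here. Of those with opposite calls, the difference was 1.76 for KCNA2 (adjusted p = 0.0002904), -1.47 for KCNC2 (0.01114), 1.97 for KCNG1 (2.034e-06), -1.24 for KCNH5 (0.003996), -2.70 for KCNJ2 (0.0003784) and -1.74 for KCNQ5 (0.03561). In KCNC2, KCNH5 and KCNQ5 the 3DFusi rise was seen with tags 3 and 4 and not with tags 1 and 2. Where the fall was larger in the Mono pair, the difference was -1.91 for KCNA1, -0.59 for KCNMA1, -1.01 for KCNJ6, -0.71 for KCNJ3 and -0.94 for KCNS3. KCND3 fell more in the 3DFusi pair (0.68). KCNB2, KCNN1 and KCNJ11, called higher in the Mono pair and not called with all 3DFusi tags, gave 0.83, 1.31 and 0.82. With 3DFusi tags 1 and 2 all 3 were called higher than 2DCocu (log2 fold changes 0.45, 0.46 and 0.52), and with tags 3 and 4 KCNN1 was called lower (-0.42) and the other two were not called (-0.24 and 0.00). Members called lower in the 3DFusi pair and not called in the Mono pair gave 1.22 for KCNQ3, 1.11 for KCNT2, 1.15 for KCNJ10 and 0.66 for KCND2. The other members that passed were KCNK10 (0.92), KCNH1 (-0.79), KCNAB1 (-0.78), KCNC4 (1.75), KCNK12 (0.99) and KCNK5 (-3.04).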

How the results depend on the processing

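Against 37 members called in 3DMono against 2DMono, 19 were called with the Vehic tags alone, which are 2 tags a group, and leaving out 1 tag gave 33 to 38. Of the named members, KCNA2, KCNC1, KCNJ11, KCNK10, KCNN2 (-0.33, adjusted p = 0.2781) and KCNN3 lost their call with the Vehic tags alone and kept their direction. For 3DFusi against 2DCocu (35 members), the alternatives called 24 to 46 members, not always the same ones. No paired analysis was possible for the format comparisons because their groups pair no cultures. For AcCoc in 2DCocu (8 members), DESeq2 called 15, 1 fit over 4 arrangements 0 and the fits without 1 tag 4 to 14, while the replicate block gave 8, with KCNQ3 in place of KCNG1. For AcMor in 2DCocu (1 member), DESeq2 called 5, no filter 2, 1 fit over 4 arrangements 0, the replicate block 0 and the fits without 1 tag 0 to 3. Correlations of deviations between same-number tags were over 0.1 in 1 of 12 pairs (2DCocu), 2 of 6 (2DMono) and 4 of 6 (3DMono). The number was not read as a pairing in 2DCocu. In 3DMono all same-number pairs (0.06 to 0.24) lay above all other pairs (highest -0.06). With 2 tags a group the deviations of a group mirror each other, so the Mono values cannot decide whether numbers pair cultures. For AcMor in 3DMono (0 members), no filter gave 5 and the fits without 1 tag 0 to 3. Within excitatory neuron-like cells, no filter gave 31 members for 3DFusi against 2DCocu (18). There AcCoc (1 member) gave 2 with DESeq2, 2 with no filter and 0 to 1 without 1 tag, and AcMor (0) gave 1 with DESeq2, 1 with coarser clusters and 0 to 1 without 1 tag. The replicate block changed no other count of calls by over 1.5 times. The cause of these shifts was not tested. The called direction of KCND2 in 3DFusi turned with the Vehic tags alone (0.15 against -0.57). Of the 35 members called in that pair, 4 turned in a subset of tags, KCNQ5 (-1.01 against 1.05), KCNC2 (-0.02 against 0.70), KCNH5 (-0.09 against 0.52) and KCNQ1 (-0.10 against 0.65). Of the uncalled members, 7 were called the other way in a subset, among them KCNN3 (0.56 against -0.07), KCNK10 (0.37 against -0.18), KCNH1 (0.40 against -0.02), KCNJ12 (-0.94 against 0.20) and KCNT1 (-1.03 against 0.41) with tags 1 and 2 and KCNH7 (-0.50 against 0.29) with tags 3 and 4, and 10 changed sign without a call, KCNB2, KCNJ9 and KCNJ13 among them. Of the called members named, 19 of 20 in the Mono pair, 18 of 20 in the 3DFusi pair, 10 of 10 in GABAergic neuron-like cells, 4 of 8 for AcCoc and 0 of 1 for AcMor kept their call in every fit without 1 tag. Under every other alternative 14 of 20, 12 of 20, 10 of 10, 0 of 8 and 0 of 1 did. In excitatory neuron-like cells these were 16 and 15 of 18 (Mono pair), 11 and 10 of 12 (3DFusi pair) and 0 and 1 of 1 (AcCoc).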

Other observations

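Several clusters without a marker-based name had members at levels well apart from the named classes of the same tags. A cluster led by SLC6A5, the glycine transporter of inhibitory neurons, and PAX2 had KCNA2, a low-threshold axonal channel, at 47.4 ± 17.8 CPM against 4.44, and KCNK9 at 93.1 ± 25.3 CPM against 16.5, both higher in 11 of 11 tags. A cluster led by RELN, LHX1 and TP73 had KCNJ5, the GIRK4 subunit, at 31.3 ± 9.22 CPM against 2.10 and KCNJ6 at 96.5 ± 34.6 CPM against 28.5 in 8 of 8 tags. KCNC2 was 1 of that cluster's leading genes. A cluster led by RIT2 and CA10, with NKX2-2 among its leading genes, had KCNJ6 at 126 ± 45.5 CPM against 25.0 and KCND2 at 547 ± 236 CPM against 181 in 21 of 21 tags. A cluster with PAX6 and FABP7 among its markers had KCNJ10 at 63.1 ± 22.2 CPM against 11.4 in 13 of 13 tags. These are descriptions of clusters drawn from expression and carry no test.

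The 5 arrangements without a treatment tag gave values that enter no comparison. KCNJ6 was at 32.5 and 47.9 CPM in the 2DProto2Fjo tags, 44.8 and 48.0 CPM in 2DProto3Wu and 38.7 and 48.1 CPM in 2DProto4Nic, and at 43.9, 66.8 and 81.7 CPM in 3DProto1For and 52.7, 70.2 and 80.0 CPM in 3DProto2Xia. KCNC2 was at 120 and 154 CPM in 2DProto2Fjo and at 8.91 to 42.6 CPM in the tags of the other 4. KCNJ5 was at 8.09 and 11.1 CPM in 2DProto2Fjo and at 0.465 to 2.46 CPM in the tags of the other 4. KCNB2 in 3DProto1For was at 112, 149 and 630 CPM, so that 1 tag of 3 stood apart. The cell mix was uneven in both 3DProto arrangements. A mesenchymal-like cluster (cluster 7) held 24.7, 34.3 and 0% of the cells of 3DProto1For tags 1 to 3, and 0, 17.6 and 0% in 3DProto2Xia. A cycling cluster (cluster 12) held 1.03, 1.28 and 12.4% against 17.9, 1.51 and 15.7%. In these clusters 3DProto1For tag 3 was closer to 3DProto2Xia tags 1 and 3 than to its own arrangement. Likewise 3DProto2Xia tag 2 was closer to 3DProto1For tags 1 and 2. Values given by arrangement name therefore join unlike tags, and the reason was not tested.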
